A study of Cricetulus griseus with 24 samples.

Results

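LR73 phagocytes, a hamster line that takes up dying cells, were compared with and without cytochalasin D. The comparison was chosen by condition, as the 4 libraries of cells given the drug and the 4 libraries of cells left alone, which are 8 of the 24 libraries of the study, and it is described across all genes tested. The labels call the phagocytes fibroblasts, grown in alpha-MEM with 10% FBS, and give 4 biological replicates per condition. Neither group was given apoptotic cells, although the label for cell type names human apoptotic Jurkat cells in every sample. LR73 is a single cell line, and the labels used here state neither the dose of cytochalasin D nor the duration of treatment. The sample titles call the control cells phagocytes alone and do not say whether they were given solvent. The other 8 libraries of the same experiment came from cells given apoptotic Jurkat cells with or without the drug. They were used to see which changes recurred in libraries that the comparison does not share. For the Jurkat cells of these libraries the labels record UV exposure and a time in culture. The remaining 8 libraries, from a second experiment on Slc12a2, were not used.

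Cytochalasin D is a fungal compound that binds the fast-growing ends of actin filaments and also binds actin monomers. Cells read the monomer pool through MRTF-A and MRTF-B, coactivators that are held by monomeric actin and that otherwise enter the nucleus and act with the serum response factor SRF on genes for actin, myosin and adhesion proteins. SRF also works with the ternary complex factors Elk1, Elk3 and Elk4, which are switched on by MAP kinase signalling and drive genes such as Egr1 and Fos. The coactivators YAP and TAZ likewise respond to actin filaments and tension, through the Hippo kinases and independently of them.

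RNA-seq fragments counted per gene numbered between 11001222 and 18671692 per library. Levels are given as CPM, counts per 1000000 counts of the library with its size scaled by TMM factors, and values in the 4 control and the 4 cytochalasin D libraries are listed in the order of replicates 1 to 4. A change is a log2 fold change of cytochalasin D against control with its standard error (SE), and a gene was called when the edgeR quasi-likelihood F test gave a Benjamini-Hochberg adjusted p under 0.05 over 13106 genes tested. "Rose" and "fell" are used for called genes. A floor of 3 counts corresponded to between 0.161 and 0.273 CPM. The p values measure spread between samples, estimated over all 16 libraries of this experiment. The first principal component of the 8 libraries held 35.2% of the variance and separated the groups, at -25.05 to -17.32 for control and 17.01 to 23.37 for cytochalasin D. Along the second component (16.6%), cytochalasin D replicates 1 and 4 lay at opposite ends, at 23.52 and -19.75. No pair of libraries agreed within sampling noise.

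The labelled cell type was checked against defining markers. Among 10 fibroblast markers Vim and Fn1 were abundant, whereas Col1a1, Col1a2, Thy1 and Lum lay at or near the floor in both groups, and the summed level was 5126 to 5661 CPM in control and 4033 to 4679 CPM with cytochalasin D. Of 15 T cell markers, 7 had no count in any of the 8 libraries, CD3 subunits Cd3d, Cd3e and Cd3g among them, and the sum was 33.3 to 36 CPM in control and 30 to 35.1 CPM with the drug. Of 8 myeloid markers, Itgam had no count, and their sum was 1.24 to 2.34 CPM in control and 2.4 to 4.17 CPM with the drug. Endothelial markers summed to 0.365 to 0.83 CPM and 0.747 to 1.18 CPM. Epithelial markers, of which Krt18, Krt19 and Cldn3 had no count, summed to 6.43 to 7.93 CPM in control and 0.996 to 1.47 CPM with cytochalasin D, a sum made almost entirely by Cdh1. Contractile markers summed to 61.5 to 68.1 CPM in control and 87.1 to 108 CPM with the drug. In these bulk libraries, fewer cells of a type and less RNA per cell cannot be told apart, and the part of other cell types in the results was not tested.

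Cytochalasin D changed 3451 of the 13106 genes tested (26.3%), of which 1772 rose (13.5%) and 1679 fell (12.8%). These shares are the background against which the counts of each gene group below are read. Most changes were small, with a median absolute log2 change of 0.319 among called genes and a median of 0.00884 over all genes tested. Changes of at least 2-fold were unequally divided, with 169 genes higher (1.29%) and 72 lower (0.549%). At least 4-fold changes were more so, with 40 higher and 6 lower. Of the 1772 genes that rose, 125 had a mean under 4 CPM over the 8 libraries. Fewer large changes were left among called genes with a symbol, at least 4 CPM, no overlap and a call without each library. Of these, Egr1 alone fell at least 4-fold, and Myl9, Acta2, Actg1, Atf3, Gpr176, Pdlim5, Zyx and Sgk1 rose that far. At most Fam131b joined those rises, since Gem, next in size, rose by less than 4-fold. Which condition the other large changes missed was not tested. The 4 values of one group lay wholly above the 4 values of the other for 3179 genes (24.3%). Of the called genes, 2334 (67.6%) were called again in each of the 8 fits that left out 1 of these libraries, and without cytochalasin D replicate 4 the number called was 3596. The share of genes called grew with level, from 8.23% in the lowest of 4 equal bins of mean CPM to 41.1% in the highest.

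**Figure D1:**
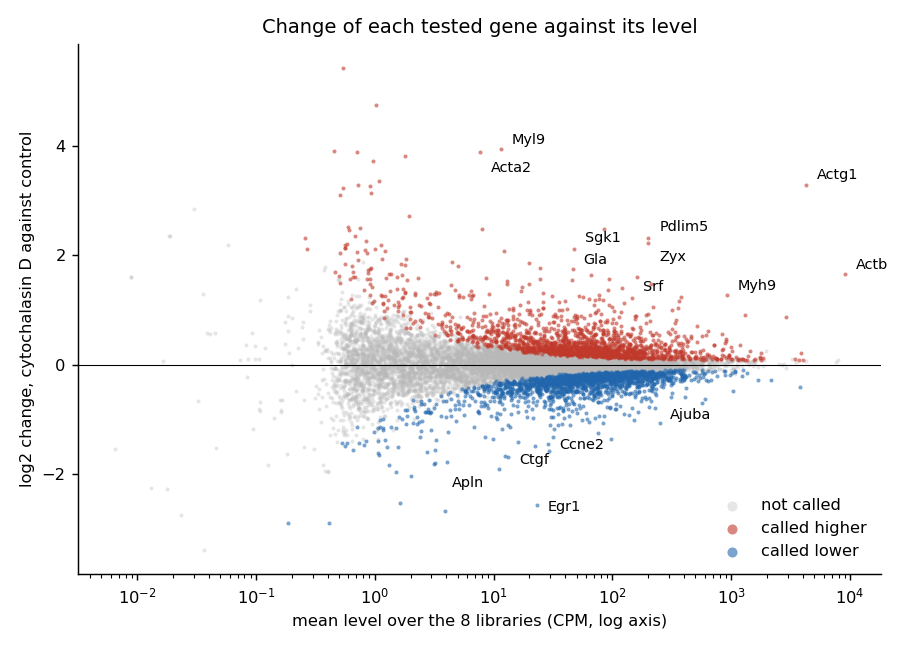
Log2 change of cytochalasin D against control (vertical axis) against the mean CPM over the 8 libraries (horizontal log axis) for each tested gene with a count in them, with called genes in red (higher) and blue (lower). Actb and Actg1 lie at the far right at log2 1.66 and 3.29, and Egr1 lies at -2.56.

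Transcripts of actin itself rose with cytochalasin D. The cytoplasmic actins Actb and Actg1 together took 0.514% to 0.538% of all counts in the control libraries and 2.01% to 2.25% with cytochalasin D. Actb, the beta isoform that dominates in most non-muscle cells, was at 4392, 4325, 4459 and 4237 CPM in the control libraries and 14467, 13924, 13351 and 13202 CPM with cytochalasin D. Actg1, the gamma isoform, was at 695, 756, 814 and 917 CPM in the control libraries and 8469, 8142, 7578 and 6967 CPM with cytochalasin D. For both genes every treated library lay above every control library, with a 3.16-fold rise of Actb (log2 1.66 with SE 0.04, edgeR adjusted p = 8e-20) and a 9.8-fold rise of Actg1 (log2 3.29 with SE 0.07, edgeR adjusted p = 8e-20). Because the gamma isoform rose more, the ratio of Actb to Actg1 in CPM per kilobase of counted exon dropped from 8.96 ± 1.14 (SD, n = 4, range 7.48 to 10.2) to 2.86 ± 0.142 (SD, n = 4, range 2.77 to 3.07). In CPM per kilobase, the level of Actb went from 2735 to 8628 and that of Actg1 from 309 to 3021.

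The muscle actins Acta2 and Actc1 stayed far rarer than the cytoplasmic ones but also rose. Acta2, the smooth muscle alpha-actin that marks contractile fibroblasts, was at 0.571, 1.03, 1.17 and 1.26 CPM in the control libraries and 12.6, 15.4, 15.1 and 14.5 CPM with cytochalasin D, a 14.8-fold rise (log2 3.89 with SE 0.21, edgeR adjusted p = 1.45e-12). Actc1, the cardiac alpha-actin, was at 11.6, 10.7, 12 and 9.73 CPM in the control libraries and 41.5, 38, 40.2 and 31.6 CPM with cytochalasin D (log2 1.77 with SE 0.10, edgeR adjusted p = 1.49e-12). The lowest treated library of each lay above the highest control library. Per kilobase, Acta2 went from 0.595 to 8.51 CPM and Actc1 from 6.57 to 22.6 CPM, so that the order of the 4 called isoforms by level, Actb, Actg1, Actc1 and Acta2, was the same in both groups. Acta1, the skeletal alpha-actin, was at 0.468 and 0.682 CPM and was not called, and Actg2 was too rare to be tested, at 0.4 and 0.506 CPM per kilobase. Coding sequences of actin isoforms are very similar, and only uniquely placed fragments were counted, so the split of counts between isoforms is uncertain.

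SRF, the DNA-binding partner of the MRTFs and itself one of their targets, rose 2.33-fold. Srf was at 84.3, 93.3, 88.6 and 84.7 CPM in the control libraries and 205, 210.3, 208 and 195 CPM with cytochalasin D (log2 1.22 with SE 0.05, edgeR adjusted p = 2.56e-14), with every treated library above every control library. The coactivator genes did not pass the test, Mkl1 (MRTF-A) at 61.3 and 63 CPM (log2 0.04) and Mkl2 (MRTF-B) at 66.5 and 69.9 CPM (log2 0.07), and Myocd, the muscle member of the family, had no count. Of the ternary complex factors, Elk3 rose (log2 0.40), and Elk1 (log2 0.10) and Elk4 (log2 0.21) were not called. Arhgap12 and Phactr4, whose proteins bind actin monomers through the same RPEL motif as the MRTFs, were not called either (log2 0.14 and 0.11).

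Most known targets of MRTF and SRF rose. Of 35 tested members of a list of 39, 30 rose and 2 fell, with a median log2 change of 1.00, against 0.00884 over all genes tested. The list holds the actins and Srf themselves. It also shares members with lists given below, among them Zyx and Pdlim5 of focal adhesions and Myl9 of the myosins. Myl9, a myosin regulatory light chain, was at 0.986, 1.09, 1.9 and 1.89 CPM in the control libraries and 20.6, 22.9, 20.1 and 22.9 CPM with cytochalasin D, a 15.3-fold rise (log2 3.94 with SE 0.25, edgeR adjusted p = 1.88e-11) and the largest among called genes with a mean of at least 4 CPM over the 8 libraries. Zyx, the adhesion and stress fibre protein zyxin, was at 65.6, 71.1, 73.3 and 73.6 CPM in the control libraries and 361, 345, 318 and 296 CPM with cytochalasin D (log2 2.22 with SE 0.07, edgeR adjusted p = 1.52e-17). In both genes the groups were far apart relative to the spread within them. Vinculin (Vcl, log2 1.55), the non-muscle myosin heavy chain Myh9 (log2 1.28), filamin A (Flna, log2 0.87) and tropomyosin 4 (Tpm4, log2 0.91) also rose. Tropomyosins 1 to 4 showed how unevenly a family could move, since Tpm1 rose only slightly (log2 0.21) and Tpm2 and Tpm3 were not called (log2 0.26 and 0.07). The members that fell were Ctgf (log2 -1.68), which also counts as a YAP target, and Fhl1 (log2 -0.28), a LIM-only protein of striated muscle.

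**Figure D2:**
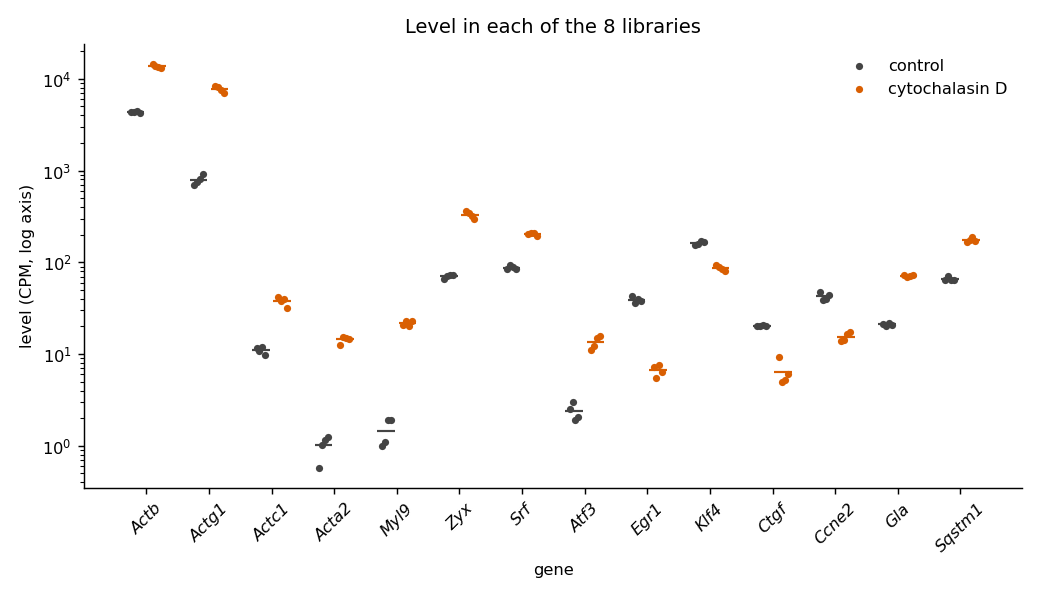
CPM (log axis) of 14 genes in each of the 4 control (grey) and 4 cytochalasin D (orange) libraries, with bars at the group means. For each gene shown the groups do not overlap, with Egr1, Klf4, Ctgf and Ccne2 lower and the others higher with cytochalasin D.

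Targets of the other arm of SRF, served by the ternary complex factors, were mostly not called in this comparison. Of 10 tested targets of SRF and ternary complex factors 1 rose and 1 fell. Egr1, a zinc finger factor induced within minutes by growth factors, was at 43, 36, 40.2 and 38.1 CPM in the control libraries and 7.19, 5.44, 7.63 and 6.35 CPM with cytochalasin D (log2 -2.56 with SE 0.11, edgeR adjusted p = 2.24e-14), so its highest treated library lay far below its lowest control library. It was the largest fall among called genes with a mean of at least 4 CPM over the 8 libraries. Egr3 (log2 -0.41), Ier2 (log2 -0.02) and Fos, which was near the floor at 0.468 and 0.4 CPM, were not called. Klf4, a zinc finger factor linked to growth arrest, fell from 163 ± 7.89 to 87 ± 5.63 CPM (log2 -0.91 with SE 0.07, edgeR adjusted p = 1.71e-09).

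A wider list of immediate early genes, with Egr1 and Klf4 among its falls, included rises. Of 29 tested, 15 rose and 3 fell, with 12 of the rises and 2 of the falls called in each of the 8 fits that left out a library. Atf3, a stress-induced repressor of the ATF family, was at 2.49, 3.03, 1.9 and 2.07 CPM in the control libraries and 11.1, 12.2, 15.1 and 15.7 CPM with cytochalasin D (log2 2.49 with SE 0.18, edgeR adjusted p = 1.41e-10). Jun, a subunit of AP-1, was at 41.5, 46.6, 52.7 and 46.7 CPM in the control libraries and 182, 137, 122 and 114 CPM with cytochalasin D (log2 1.57 with SE 0.15, edgeR adjusted p = 3.83e-08). Neither gene had overlapping groups. Gem, a small GTPase that restrains calcium channels, rose 3.67-fold from 1.9 ± 0.421 to 7.09 ± 0.973 CPM, and the AP-1 subunit Fosl2 rose less (log2 0.93). Myc (log2 -0.22) and Junb (log2 0.16) were not called.

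Of 17 tested EGF ligands and MAP kinase feedback genes, 7 rose and 3 fell, a count of falls that was 1 without control replicate 1 or 3 or cytochalasin D replicate 3. Dusp1, which acts on p38, JNK and ERK in the nucleus, was at 12.4, 12.7, 11.4 and 12.8 CPM in the control libraries and 37.3, 36.6, 33.8 and 38.8 CPM with cytochalasin D (log2 1.57 with SE 0.08, edgeR adjusted p = 2.01e-13). Dusp10 and Dusp16, which prefer p38 and JNK, rose by log2 1.48 and 1.18, and Dusp5 and Dusp4, nuclear phosphatases with ERK among their substrates, by 0.86 and 0.82. Dusp6, the cytoplasmic ERK phosphatase, was not called (log2 -0.13), and Dusp14 fell (log2 -0.90). The ERK feedback inhibitor Spry2 rose (log2 0.64), and the EGF receptor ligand Areg was not called (log2 0.14).

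Among the proteins that build filaments, the changes were selective. In the Arp2/3 complex, which nucleates branched filaments, the actin-related subunits Actr3 (log2 0.55) and Actr2 (log2 0.49) rose, and of the 9 tested subunits 4 were called higher and 1 lower. Of the other calls the rise of Arpc4 was slight (log2 0.19), and those of Arpc2 and Arpc5l were lost in most of the 8 fits that left out a library. Its activators of the WAVE and WASP families gave 3 rises and 1 fall in 12, none beyond log2 0.30. Of 8 formins and tandem nucleators, which start unbranched filaments, Daam1 rose (log2 0.83), Fmnl2 fell (log2 -0.34) and Diaph1 was not called (log2 0.06).

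Of 17 proteins that take filaments apart and handle monomers, 9 rose and 2 fell. Wdr1, also called Aip1, which speeds disassembly by cofilin, was at 111, 113, 108 and 111 CPM in the control libraries and 309, 310.0, 322 and 297 CPM with cytochalasin D (log2 1.48 with SE 0.04, edgeR adjusted p = 4.36e-18). Its treated and control libraries did not overlap. Cap1, which recycles monomers from cofilin (log2 0.66), the cofilin phosphatase Ssh1 (log2 0.86) and the cofilin relative destrin (Dstn, log2 0.55) rose as well. Limk1, the kinase that inactivates cofilin, fell (log2 -0.23), and the monomer-binding Tmsb10 was not called (log2 0.07). Of 12 capping and severing proteins 3 rose and 3 fell, with 5 rises without cytochalasin D replicate 4. Lrrc16a, also called Carmil1, which takes capping protein off filament ends, rose (log2 0.59), and Eps8, which caps them, fell (log2 -0.61).

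Of 28 crosslinking and bundling proteins 16 rose and 4 fell. Alpha-actinin 1 (Actn1) rose from 249 ± 4.06 to 438 ± 18 CPM (log2 0.82 with SE 0.04, edgeR adjusted p = 1.39e-13), while its close relative Actn4 was not called (log2 0.02), and Fscn1, the filopodial bundler fascin, fell (log2 -0.48). Of 22 myosins and regulators 8 rose and 3 fell, with 1 fall without control replicate 2. Myh9 went from 541 ± 42.6 to 1310.4 ± 47.2 CPM (log2 1.28 with SE 0.05, edgeR adjusted p = 1.4e-15), and the other non-muscle heavy chain, Myh10, was not called (log2 0.06). The kinases Rock1 and Rock2, which act on myosin, were not called (log2 0.00 and 0.09).

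In focal adhesions, the sites where integrins meet actin, 16 of 32 tested genes rose and 4 fell, and each of these 20 calls was kept in the 8 fits that left out a library. Pdlim5, a PDZ and LIM domain adaptor, was at 75.1, 67.9, 63.4 and 60.8 CPM in the control libraries and 313, 329.9, 334 and 362 CPM with cytochalasin D (log2 2.32 with SE 0.06, edgeR adjusted p = 7.66e-19). Its lowest treated library was well above its highest control library. The LIM proteins Pdlim7 (log2 1.61) and Csrp1 (log2 1.24), kindlin-2 (Fermt2, log2 1.05) and integrin-linked kinase (Ilk, log2 0.77) rose. Pxn (paxillin) and Ptk2 (focal adhesion kinase) were not called (log2 -0.01 and -0.03). The 4 falls were Tns3 (log2 -0.80) and Tns1 (log2 -0.59), the tensins of fibrillar adhesions, Pdlim1 (log2 -0.42) and Fhl1. Among integrins, the fibronectin receptor subunit Itga5 rose (log2 0.61), Itgb1 rose slightly (log2 0.18), and Itgb5 (log2 -0.30) and Itgb4 (log2 -0.44) fell.

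Small GTPases of the cytoskeleton included a pair with clear rises. Rhob, a short-lived endosomal GTPase, was at 10.5, 11.8, 6.64 and 8.65 CPM in the control libraries and 27.8, 29.1, 23 and 22.5 CPM with cytochalasin D (log2 1.43 with SE 0.14, edgeR adjusted p = 5.83e-08), and Rhoq, the Cdc42 relative also called TC10, was at 6.64, 7.4, 6.57 and 6.57 CPM in the control libraries and 15, 20.4, 19 and 21.1 CPM with cytochalasin D (log2 1.48 with SE 0.12, edgeR adjusted p = 1.19e-09). Both had treated libraries wholly above the control libraries. Rhoa, Rac1 and Cdc42 were not called (log2 0.06, 0.06 and 0.04). Arhgap29, a GTPase-activating protein, fell (log2 -0.95).

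Beyond actin, the microtubule list of 22 held 8 rises, such as Tubb6 (log2 0.64), and 1 fall. Intermediate filament and nuclear lamina genes went the other way, with 1 rise and 7 falls in 15. Vim, the vimentin of mesenchymal cells, was at 4094, 4457, 4515 and 4269 CPM in the control libraries and 3673, 3333, 3121 and 2984 CPM with cytochalasin D (log2 -0.40 with SE 0.05, edgeR adjusted p = 3.49e-06), without overlap, and lamin B1 (Lmnb1, log2 -0.53) and lamin B2 (Lmnb2, log2 -0.30) fell while Lmna was not called (log2 -0.03). Of 8 genes of caveolae, the small membrane pits that flatten under tension, 5 fell, among them Cav1 (733 ± 40.4 to 478 ± 23.6 CPM, log2 -0.62 with SE 0.05, edgeR adjusted p = 3.67e-10) and Cav2 (log2 -0.49), and 1 rose, Prkcdbp, which encodes cavin-3 (log2 0.87). Of 16 genes of the chaperonin that folds actin and tubulin and of its partners, prefoldin among them, 2 rose and 1 fell, with 5 falls without cytochalasin D replicate 4. None of the 8 chaperonin subunits tested was called higher, Tcp1 fell slightly (log2 -0.11), and its regulator Pdcl3 rose (log2 0.76).

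Targets of YAP and TAZ fell more often than they rose, 10 of 20 against 3, with a median log2 change of -0.25. Ctgf, also called Ccn2, was at 20, 20.3, 20.6 and 20 CPM in the control libraries and 9.35, 4.93, 5.16 and 6.04 CPM with cytochalasin D (log2 -1.68 with SE 0.14, edgeR adjusted p = 3.03e-09), with treated replicate 1 well above the other 3 treated libraries. Cyr61, also called Ccn1, a secreted protein of the same family, was at 50.1, 50.1, 55.7 and 50.6 CPM in the control libraries and 136, 129, 134 and 135 CPM with cytochalasin D (log2 1.37 with SE 0.06, edgeR adjusted p = 6.5e-14). The groups were apart in opposite directions for this related pair. Ankrd1 (log2 1.31) and Gadd45a (log2 0.55) rose too. The other falls included Ajuba (log2 -1.06) and Amotl2 (log2 -0.86), which are themselves regulators of the pathway. Cyr61, Ankrd1 and Ctgf are also members of the MRTF and SRF list. Among 21 components of the Hippo pathway 5 rose and 2 fell. The DNA-binding partner Tead4 rose (log2 0.94) and Tead3 fell (log2 -0.59), and the TAZ gene Wwtr1 rose (log2 0.58) while Yap1 was not called (log2 0.10).

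**Figure D3:**
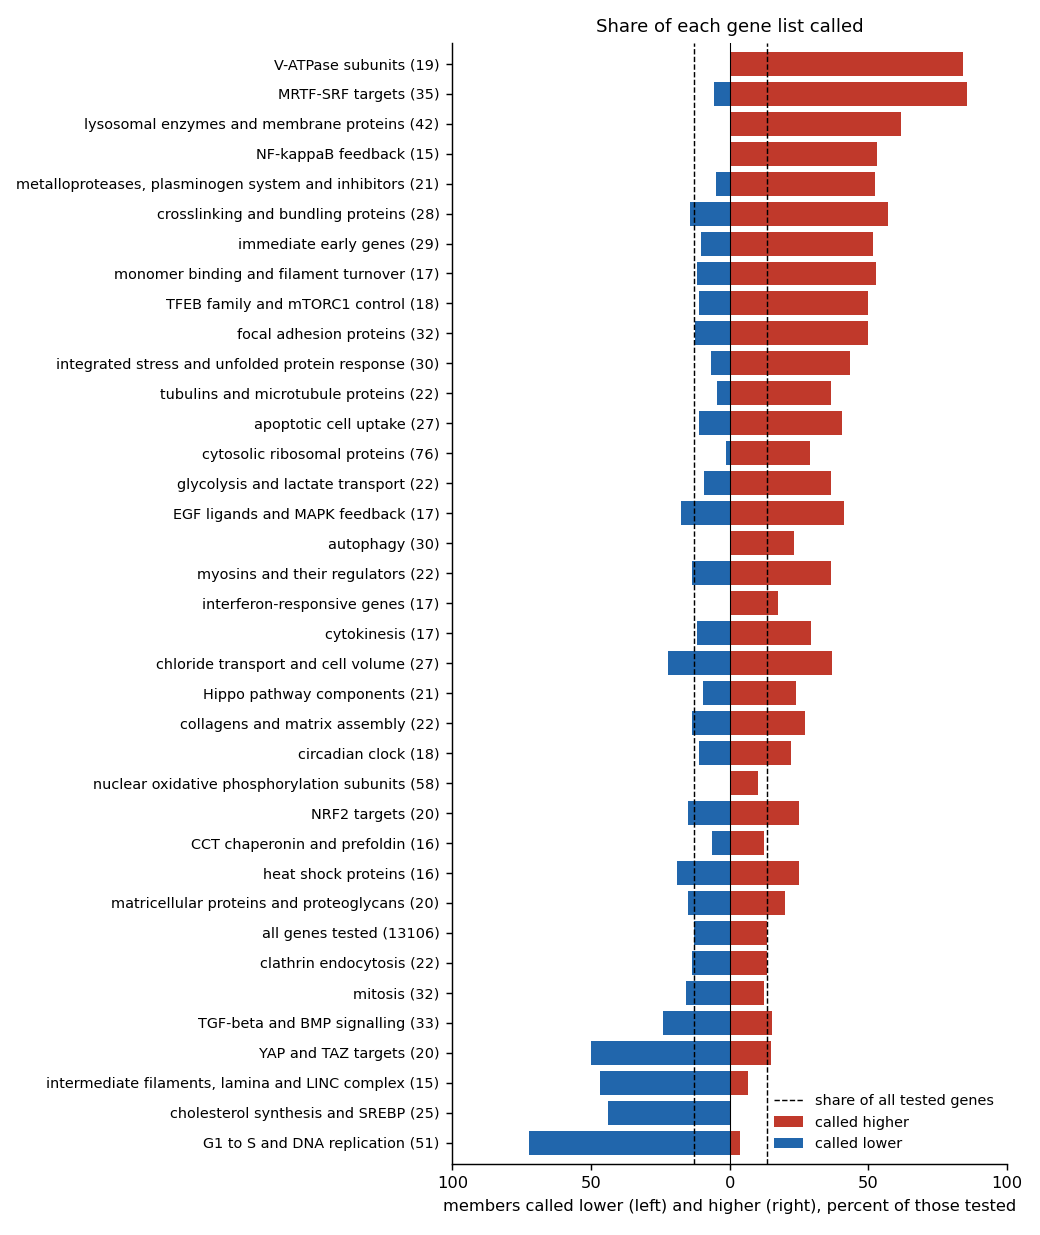
Percent of tested members called higher (red, right) and lower (blue, left) for gene lists with at least 15 tested members that are reported here, with the number tested in parentheses and dashed lines at the 13.5% and 12.8% of all genes. V-ATPase, MRTF-SRF and lysosomal lists extend farthest to the right, and the list of G1 to S and DNA replication genes farthest to the left.

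Genes of the lysosome, the acidic compartment that breaks down engulfed and cellular material, also rose. Of 42 tested lysosomal enzymes and membrane proteins 26 rose and 0 fell, with a median log2 change of 0.30. Gla, the alpha-galactosidase lacking in Fabry disease, was at 21.5, 20.4, 22 and 20.8 CPM in the control libraries and 72.3, 69.6, 70.3 and 72.9 CPM with cytochalasin D (log2 1.75 with SE 0.09, edgeR adjusted p = 2.01e-13). Its groups were more than 2-fold apart in every library, whereas most others moved by less. Cathepsin B (Ctsb, log2 0.70), the heparan sulphate enzyme Naglu (log2 0.62) and the calcium channel Mcoln1 (log2 0.61) rose, and acid lipase (Lipa) and cathepsin Z (Ctsz) were not called (log2 -0.03 and 0.13).

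The proton pump that acidifies lysosomes rose across both of its sectors. Of 19 tested V-ATPase genes 16 rose and 0 fell, with a median log2 change of 0.39, and the 16 calls were kept in each of the 8 fits that left out a library. Atp6v1b2, which encodes a subunit of the catalytic head, was at 132, 135, 124 and 137 CPM in the control libraries and 254, 247, 246 and 245 CPM with cytochalasin D (log2 0.91 with SE 0.04, edgeR adjusted p = 1.71e-14). Atp6v0b, of the membrane ring, rose from 57.7 ± 3.73 to 101 ± 8.99 CPM (log2 0.80). In the first gene the groups did not overlap. Of the 3 that were not called, Atp6v1c2 was at 27.8 and 25 CPM and Atp6v1g2 at 13.5 and 12.1 CPM.

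TFEB and its relatives are transcription factors for lysosomal genes that are held in the cytoplasm by mTORC1 with the help of folliculin. Of 18 genes of this family and of mTORC1 control, 9 rose and 2 fell. Folliculin (Flcn) was at 14.5, 16.3, 17.7 and 14.9 CPM in the control libraries and 27.5, 33.7, 32.3 and 32.6 CPM with cytochalasin D (log2 1.00 with SE 0.09, edgeR adjusted p = 1.11e-08), and its partners Fnip2 (log2 1.27) and Fnip1 (log2 0.89) and the GTPase Rragc (log2 0.48) rose. The control and treated libraries of Flcn were separate. Among the transcription factor genes, Tfe3 was not called (log2 -0.02) and Mitf fell (log2 -0.32). Tfeb was called lower (log2 -0.45 with SE 0.17, edgeR adjusted p = 0.0467), a call kept in 2 of the 8 fits that left out a library, and its groups overlapped. Of 30 autophagy genes 7 rose and 0 fell, with 2 falls without cytochalasin D replicate 4 and 2 by DESeq2. Sqstm1, the cargo receptor p62, was at 64.9, 71.1, 64.8 and 63.8 CPM in the control libraries and 168, 173, 187 and 172 CPM with cytochalasin D (log2 1.40 with SE 0.06, edgeR adjusted p = 2.1e-14), far apart, while Map1lc3b (log2 0.33) and Nbr1 (log2 0.33) rose by less and the membrane protein Atg9a was not called (log2 -0.07).

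Genes of the entry into S phase and of DNA replication fell together. Of 51 tested 37 fell and 2 rose, with a median log2 change of -0.30, and 46 of the 51 estimates were below 0. Ccne2, which encodes cyclin E2 of the G1 to S transition, was at 47.4, 38.5, 39.5 and 44.2 CPM in the control libraries and 13.8, 14.2, 16.5 and 17.6 CPM with cytochalasin D (log2 -1.45 with SE 0.09, edgeR adjusted p = 1.95e-11). Ung, the uracil glycosylase of replicating cells, was at 43.4, 42.5, 44.4 and 46 CPM in the control libraries and 11.7, 13.9, 16.1 and 17.2 CPM with cytochalasin D (log2 -1.57 with SE 0.10, edgeR adjusted p = 1.65e-11). In both genes the treated libraries lay wholly below the control libraries. Cyclin E1 (Ccne1, log2 -1.17), the origin licensing factor Cdc6 (log2 -0.96), the ribonucleotide reductase subunit Rrm2 (log2 -0.77) and cyclin D1 (Ccnd1, log2 -0.54) fell, as did Mcm3 to Mcm7, by log2 -0.26 to -0.60. The helicase subunit Mcm2 was not called (log2 0.10), and cyclin D2 (Ccnd2, log2 0.30) rose.

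Genes of mitosis did not share this fall. Of 32 tested 5 fell and 4 rose, shares near the background, and the median log2 change was -0.0072. The rises numbered 2 without control replicate 1 or 3 or cytochalasin D replicate 1 or 3. Cdk1 (172 and 169 CPM, log2 -0.03), cyclin B1 (Ccnb1, 263 and 267 CPM, log2 0.02) and Mki67 (log2 0.07) were not called. Cdc25a, a phosphatase that also acts at the G1 to S transition, had the largest fall of the list (log2 -0.56). Of 17 cytokinesis genes 5 rose and 2 fell, with Anln, which binds the contractile ring, not called (log2 -0.08) and the exchange factor Ect2 lower (log2 -0.41). Without cytochalasin D replicate 1, 3 of the cytokinesis genes rose. Of 12 tested CDK inhibitor and quiescence genes 2 rose and 1 fell, with a median log2 change of -0.038. Among them the CDK inhibitor Cdkn1a (p21) rose from 150.3 ± 9.2 to 262 ± 28.9 CPM (log2 0.80 with SE 0.07, edgeR adjusted p = 7.41e-09).

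**Figure D4:**
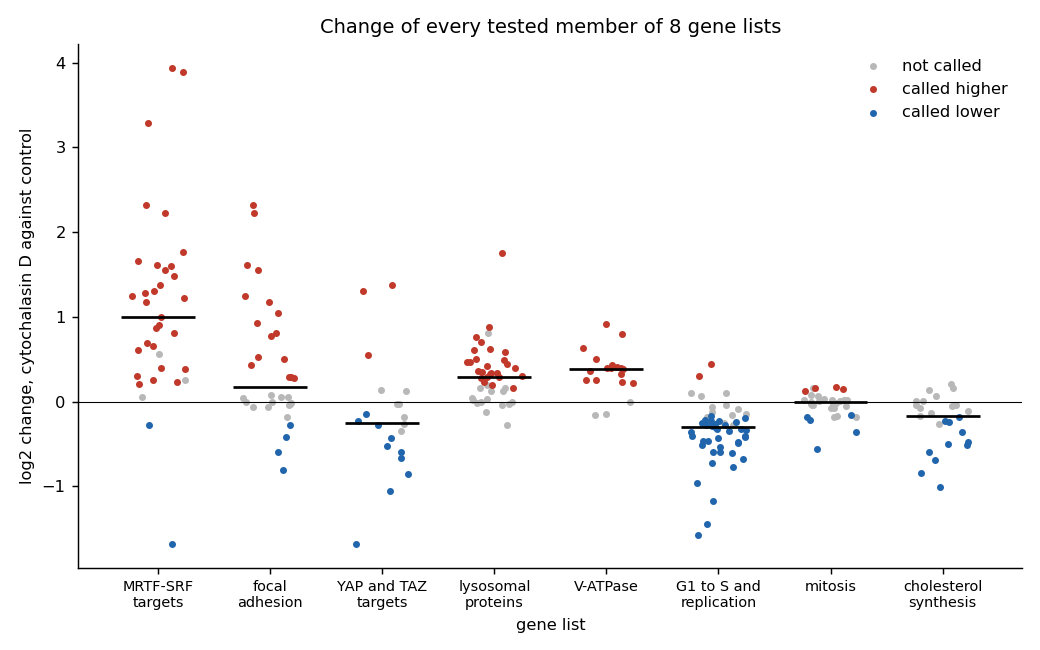
Log2 change of cytochalasin D against control for every tested member of 8 gene lists, with called members in red (higher) or blue (lower) and black bars at the list medians. The bar lies at 1.00 for MRTF-SRF targets, at 0.39 for V-ATPase and at -0.30 for G1 to S and DNA replication.

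Cholesterol synthesis fell in part. Of 25 genes of sterol synthesis and its SREBP control 11 fell and 0 rose (2 rose without control replicate 2). Idi1, the isopentenyl diphosphate isomerase early in the pathway, was at 65.1, 56.6, 60 and 54.4 CPM in the control libraries and 27.7, 34, 32.7 and 36.9 CPM with cytochalasin D (log2 -0.85 with SE 0.10, edgeR adjusted p = 4.48e-07), with no overlap. The SREBP retention factor Insig1 (log2 -0.69) and the synthase Hmgcs1 (log2 -0.51) also fell. Srebf2, the transcription factor of the pathway, and its escort Scap were not called (log2 0.01 and 0.01).

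Stress and inflammatory feedback genes rose in part. Of 30 genes of the integrated stress and unfolded protein responses 13 rose and 2 fell. Ddit3 (CHOP) was at 18.2, 17.3, 14.6 and 18.4 CPM in the control libraries and 35.7, 34, 34.6 and 36.7 CPM with cytochalasin D (log2 1.04 with SE 0.08, edgeR adjusted p = 1.19e-09), and Trib3 (log2 1.00) and Atf4 (log2 0.51) rose with it. The treated values of Ddit3 were all above the control values. The endoplasmic reticulum chaperones Hsp90b1 and Pdia6 were not called (log2 -0.01 and 0.03). Of 15 NF-kappaB feedback genes 8 rose and none fell. Tnfaip3, the ubiquitin editor A20, was at 60.5, 61.3, 71.7 and 65.3 CPM in the control libraries and 129.5, 132, 133 and 139 CPM with cytochalasin D (log2 1.05 with SE 0.05, edgeR adjusted p = 5.68e-13), and the inhibitor Nfkbia rose (log2 0.44). Of 13 inflammatory cytokine and chemokine genes 4 rose and 2 fell. The prostaglandin synthase Ptgs2 (log2 0.59) and the cytokine Lif (log2 0.34) rose, the cytokine Il15 (log2 -1.36) and the chemokine Cxcl12 (log2 -1.01) fell, and Csf1 was not called (log2 -0.04).

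Of 21 metalloproteases, plasminogen activators and their inhibitors 11 rose and 1 fell, with a median log2 change of 0.43. Plaur, the urokinase receptor, was at 13.2, 13.2, 15.7 and 11.6 CPM in the control libraries and 28.7, 22.7, 20.7 and 19.6 CPM with cytochalasin D (log2 0.77 with SE 0.13, edgeR adjusted p = 8.4e-05), with every treated library above every control library. Tissue plasminogen activator (Plat, log2 0.53), the membrane protease Mmp14 (log2 0.61) and Mmp9 (log2 0.54) rose. Adamts1 fell (log2 -0.77). Collagens and their modifying enzymes gave 6 rises and 3 falls in 22, and TGF-beta and BMP signalling 5 and 8 in 33, with the activin antagonist follistatin (Fst, log2 -0.98) lower.

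Cell volume and chloride genes gave 10 rises and 6 falls in 27. The 8 fits that left out a library gave 7 to 9 rises and 4 to 5 falls. Sgk1, a kinase that regulates ion transporters, was at 15.7, 20.7, 17.3 and 17.3 CPM in the control libraries and 75.6, 81.5, 74 and 76.2 CPM with cytochalasin D (log2 2.11 with SE 0.07, edgeR adjusted p = 2.17e-16), and the water channel Aqp1 was at 111, 118, 111 and 109 CPM in the control libraries and 57, 49.8, 55.9 and 52.8 CPM with cytochalasin D (log2 -1.06 with SE 0.05, edgeR adjusted p = 2.49e-13). These moved apart in opposite directions. Clcn7 and Clcn6, chloride and proton exchangers of lysosomes and late endosomes, rose (log2 0.65 and 0.54), while Slc12a2, an importer of sodium, potassium and chloride, fell (log2 -0.68).

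Some of the largest changes lay outside these groups. Gpr176, an orphan receptor, was at 26.9, 27, 24.2 and 25.8 CPM in the control libraries and 136, 141, 145 and 159 CPM with cytochalasin D (log2 2.48 with SE 0.07, edgeR adjusted p = 6.41e-18), and Spsb4, of a family of ubiquitin ligase adaptors, rose by log2 1.85. Apln, which encodes the peptide hormone apelin, was at 17.7, 17.5, 15 and 19.4 CPM in the control libraries and 4.64, 3.6, 5.44 and 4.92 CPM with cytochalasin D (log2 -1.90 with SE 0.13, edgeR adjusted p = 1.55e-10), and Hook1, a linker of endosomes to microtubules, fell as well (log2 -1.77). Neither Gpr176 nor Apln had overlapping groups. Dab2, an adaptor for clathrin-mediated uptake, was at 112, 103, 104 and 109 CPM in the control libraries and 38.8, 43.8, 48.4 and 49.3 CPM with cytochalasin D (log2 -1.24 with SE 0.07, edgeR adjusted p = 1.49e-12), whereas the clathrin list as a whole had 3 rises and 3 falls in 22. Cdh1 (E-cadherin), rare in these cells, fell from 6.79 ± 1.1 to 1.05 ± 0.288 CPM (log2 -2.68 with SE 0.24, edgeR adjusted p = 5.96e-09).

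The drug was also given in the presence of apoptotic cells, in 8 libraries that belong to neither group compared above. They entered the same fit, so both comparisons share its gene filter and estimate of spread. With apoptotic cells cytochalasin D changed 4256 genes (32.5%), 2145 higher (16.4%) and 2111 lower (16.1%). These libraries also held human Jurkat cells, whose part in the counts was not tested. Of the 1772 genes that rose without apoptotic cells 1132 rose again, which is 63.9% of the first list and 52.8% of the second, and 12 fell. Of the 1679 that fell 928 fell again (55.3% and 44%), and 39 rose. Among the larger changes, 131 of the 169 genes that rose at least 2-fold and 48 of the 72 that fell at least 2-fold were called the same way.

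The groups that led the comparison recurred to different degrees. Actb (log2 1.64), Actg1 (log2 3.21), Srf (log2 1.24), Zyx (log2 2.19) and Egr1 (log2 -2.39) changed in the same direction with apoptotic cells, and none of these 5 differences between the settings was called. Of the MRTF and SRF targets 29 rose and 2 fell, of lysosomal genes 24 rose and 0 fell, and of G1 to S genes 41 fell and 2 rose. V-ATPase genes rose in 11 of 19 with 0 differences called between the settings. NF-kappaB feedback genes gave 3 rises and 1 fall, with 3 differences called. Of the 10 tested targets of SRF and ternary complex factors, 1 rose and 5 fell with apoptotic cells, with 1 difference called. Differences between the settings were called for 7 of 35 MRTF and SRF targets (4 to 7 over the 16 fits that left out a library), 2 of 42 lysosomal genes (0 to 6) and 3 of 51 G1 to S genes (2 to 8), against 4.56% of all genes tested. Cholesterol synthesis had 5 falls and 2 rises with apoptotic cells and 9 differences called among 25 genes, and YAP targets held 7 differences among 20 (5 to 8). Without cytochalasin D replicate 4, differences called numbered 10 for cholesterol synthesis, 5 for NF-kappaB feedback and 5 for V-ATPase genes.

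A test of the difference between both effects called 598 genes (4.56%), 397 with a higher and 201 with a lower log2 change when apoptotic cells were present (3.03% and 1.53%), and the total depended on single libraries. It was 1645 without cytochalasin D replicate 4. It was 274, 293 and 351 without cytochalasin D replicates 1, 2 and 3, 288 without control replicate 1, 251 and 366 without apoptotic cell replicates 3 and 4, and 275 and 266 without replicates 3 and 4 of both treatments. The genes named next were called in each of the 16 fits that left out a library. Thbs1, the matrix protein thrombospondin 1, was at 271, 301, 277 and 298 CPM in the control libraries and 275, 264, 265 and 291 CPM with cytochalasin D, with log2 -0.07. It was at 360.0, 364, 369.8 and 357 CPM with apoptotic cells and 1036, 882, 953 and 1039 CPM with both, a rise (log2 1.43, SE 0.05, edgeR adjusted p = 1.93e-16) that exceeded the change without apoptotic cells (difference 1.5, SE 0.07, edgeR adjusted p = 1.69e-12). The BMP target Id1 rose without apoptotic cells, from 8.48 ± 1.11 to 13.3 ± 3.27 CPM (log2 0.63), and fell with them (log2 -1.29, SE 0.15, edgeR adjusted p = 4.78e-07), a called difference (difference -1.92, SE 0.22, edgeR adjusted p = 2.16e-05). Sgk1 rose in both settings but less with apoptotic cells (log2 1.09, difference -1.02, SE 0.10, edgeR adjusted p = 1.26e-06), Cyr61 rose more (log2 2.37, difference 1.00, SE 0.09, edgeR adjusted p = 4.73e-07), and Vgll3, a TEAD cofactor not called without apoptotic cells (log2 0.05), rose with them (log2 1.05, difference 1.00, SE 0.10, edgeR adjusted p = 3.43e-06). Idi1 fell only in the setting without apoptotic cells by the test of each effect (log2 0.09 with them), and that difference was called (difference 0.93, SE 0.14, edgeR adjusted p = 0.000338). Among genes that fell without apoptotic cells and had a called difference, the effect was smaller or reversed with apoptotic cells for 183 and larger for 26, and among those that rose it was smaller or reversed for 57 and larger for 56. Over the 16 fits these numbers ranged from 76 to 357, 16 to 67, 25 to 157 and 37 to 90. Each had its highest value without cytochalasin D replicate 4. The genes were selected by their call without apoptotic cells, and the difference subtracts that same estimate. Selection alone therefore favours a smaller effect with apoptotic cells, and these numbers cannot tell whether the drug acted less there.

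**Figure D5:**
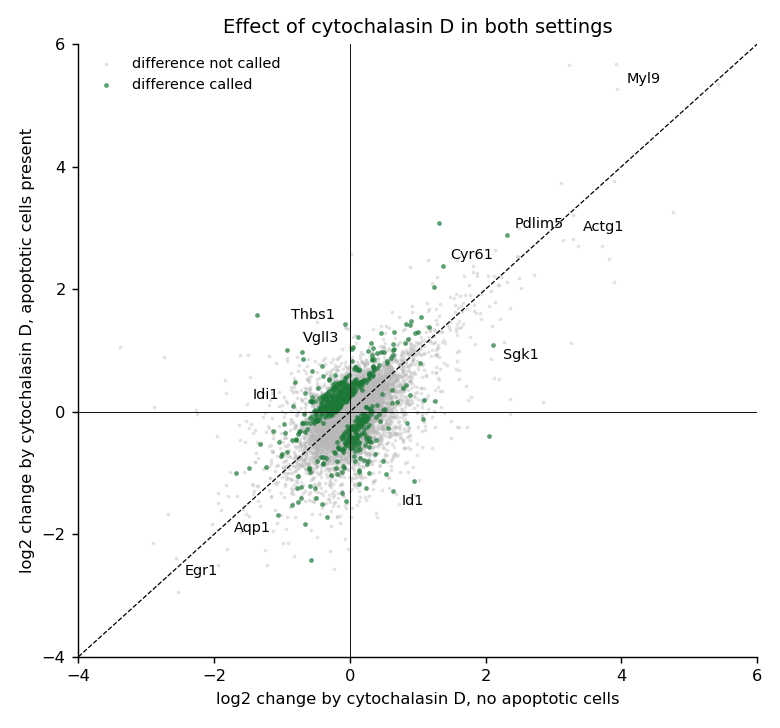
Log2 change by cytochalasin D without (horizontal axis) and with (vertical axis) apoptotic cells for each tested gene, with genes whose difference was called in green and a dashed line where both effects are equal. Actg1 and Egr1 lie near the line, Thbs1 and Vgll3 lie above it near 0 on the horizontal axis, and Id1 lies in the lower right.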

How the data were processed

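RNA was measured in 8 libraries of LR73 cells, 4 of phagocytes alone and 4 with cytochalasin D, read as 75 bp pairs per the labels. The authors deposited raw counts of fragments for each gene name. Per the file headers they came from featureCounts 1.5.0, run without options for strand or for multi-mapped fragments. STAR, FastQC and DESeq2 are named in the submitters' processing notes, all without versions, and the genome build is not given in the sources used here. Counts covered 26776 gene names, 11415 of them without a symbol, of which 661 were given one by gene identifier. The row without a name, 0.0323% to 0.0445% of counts, was left out. Exon length as deposited by the authors, in bases, served for levels per kilobase.

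Counts were fitted with edgeR 4.0.16 in R 4.3.3 over the 16 libraries of the first experiment, which share 1 estimate of spread (biological coefficient of variation 7.04%), scaled by TMM. Genes were kept by filterByExpr with a minimum count of 10 and a minimum total of 15, and groups were tested by quasi-likelihood F without covariates. The effect with apoptotic cells and the difference between both effects came from the same fit. Alternatives were DESeq2 1.42.0, limma-voom (limma 3.58.1), other factors, filters and thresholds, a robust fit, a length correction, a replicate block and each library left out. On simulated counts of 12959 genes with known changes, edgeR recovered 91%, 100% and 100% of 1.5-, 2- and 4-fold changes, with 11 false calls among 205. The simulation changed 200 genes, none by less than 1.5-fold, so recovery of smaller changes was not tested. In the data 660 of the 3451 called genes reached 1.5-fold. Floors cover counting error only.

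The members, the 56 lists and the naming rule were chosen with earlier results of these data known. The rule took the 15 largest changes per direction among called genes with a symbol, at least 4 CPM and no overlap that were called without each library, up to 6 called members per list and direction with 2 uncalled ones, all members of the actin, tropomyosin, SRF and RPEL lists, and the 5 strongest differences per direction. The text names a subset. Actn4, Ankrd1, Ccnb1, Ccnd1, Cdh1, Cdk1, Dusp6, Egr3, Fermt2, Fos, Ier2, Ilk, Mcm3 to Mcm7, Ptk2, Pxn, Rock1, Rock2, Tfe3, Yap1 and Dbp were added after their values were seen. Some genes and lists are not reported here.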

Additional observations from a re-analysis of the deposited data

Results flagged for a closer look

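In a group of 4 libraries, 1 value stood apart from the other 3 for 17 of 394 pairs of a named gene and a group, and chance flags about 1 in 20 such groups. In control replicate 1, Itgb4 (75.59 CPM), Scap (201.1 CPM) and Tubb6 (119.3 CPM) were low. Control replicate 2 was high for Rhoq (7.4 CPM) and Sqstm1 (71.08 CPM). Control replicate 3 was high for Cyr61 (55.67 CPM). Control replicate 4 was high for Diaph1 (73.67 CPM) and Fnip1 (26.12 CPM) and low for Ankrd1 (1.35 CPM). With cytochalasin D, replicate 1 was high for Amotl2 (124.3 CPM) and Pxn (80.1 CPM) and low for Mkl2 (64.51 CPM). Replicate 2 was high for Actr2 (200.4 CPM). Replicate 4 was high for Gem (8.53 CPM), Mcm6 (166.2 CPM) and Anxa1 (1038 CPM) and low for Dusp5 (66.07 CPM).

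The effect of cytochalasin D with apoptotic cells differed from that without them, by the edgeR test of the difference at an adjusted p under 0.05, for 33 of the 197 named genes. The values that follow are log2 changes with apoptotic cells minus those without. Among cytoskeletal and YAP-linked genes the difference was 1.78 for Ankrd1, 1.00 for Cyr61, 1.00 for Vgll3, 0.68 for Ctgf, 0.40 for Amotl2, 0.56 for Pdlim5, 0.28 for Dstn, -0.55 for Tmsb10, 0.36 for Rock2, 0.60 for Arhgap29, 0.17 for Itgb1, -0.34 for Vim and -0.44 for Lmna. Among sterol genes it was 0.93 for Idi1, 0.53 for Hmgcs1 and 0.50 for Insig1. Among signalling and transcription genes it was -1.92 for Id1, -1.09 for Egr3, -1.02 for Sgk1, 0.77 for Fst, 0.52 for Fnip1, 0.49 for Tnfaip3, -0.38 for Dusp4, 0.33 for Dusp5, -0.64 for Areg and 0.30 for Cxcl12. Among the rest it was 1.5 for Thbs1, -0.71 for Adamts1, -0.63 for Aqp1, 0.34 for Dab2, -0.27 for Mmp14, -0.27 for Rrm2 and -0.27 for Ctsz. The calls for Areg, Ctgf, Ctsz, Cxcl12, Dab2, Itgb1, Lmna, Mmp14 and Tmsb10 were lost in 3 to 12 of the 16 fits that left out a library.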

How the results depend on the processing

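The number of genes changed by cytochalasin D stayed within 1.5 times of 3451 under DESeq2, limma-voom, relative log expression factors, 2 other filters, a robust fit, removal of the length trend and a fit on the 8 compared libraries, at 2929 to 3515. Replicate numbers did not pair the samples (correlations of deviations -0.06 to 0.05), and the replicate block gave 3412, 4272 with apoptotic cells present and 753 for the difference. An adjusted p under 0.01 left 2233 genes (1152 higher, 1081 lower), 2828 with apoptotic cells (1369 lower) and 132 differences (86 higher, 46 lower). A minimum of 1.5-fold left 660 (410 and 250), 1040 (481 and 559) and 134 (72 and 62). DESeq2 called 975 differences (645 and 330) and no filter 928 (385 lower), and the cause was not tested. Leaving out 1 library gave 2866 to 3596 genes (1465 to 1767 higher, 1401 to 1829 lower), 3483 to 4122 with apoptotic cells (1722 to 2029 higher, 1717 to 2126 lower) and 251 to 1645 differences (166 to 909 higher, 85 to 736 lower). None of the 148 called genes named changed direction, and 147 (the exception is Tfeb) were called under every alternative other than those 2 stricter thresholds, although most were chosen by a rule that favours stable calls. Most list counts also shrank at 1.5-fold, G1 to S falls from 37 to 10 and V-ATPase rises from 16 to 3. The share of genes called grew with level (8.23% to 41.1%), and recovery by level was not tested. The planned narrower promoter window was not run, since no promoter sequences were at hand.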

Other observations

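Of 27 tested genes of apoptotic cell recognition and uptake, 11 rose and 3 fell. The phosphatidylserine-binding annexin Anxa1 (log2 0.57) and the receptor Lrp1 (log2 0.36) rose, while the receptor kinase Axl (log2 -0.28) and the engulfment adaptor Gulp1 (log2 -0.37) fell. Of 20 targets of the oxidative stress factor NRF2, 5 rose (3 without cytochalasin D replicate 2) and 3 fell. Hmox1, the haem oxygenase, rose from 136 ± 8.22 to 259 ± 17 CPM (log2 0.94), Srxn1 rose (log2 0.84) and glutathione reductase (Gsr) fell (log2 -0.46). Glycolysis and lactate transport gave 8 rises and 2 falls in 22, led by Eno2 (log2 0.83) and Pfkfb3 (log2 0.67), and the glucose transporter Slc2a1 rose (log2 0.50) while Gapdh was not called (log2 0.05). Among clock genes Bhlhe40 rose (log2 0.51) and Dbp, at 4.78 and 2.47 CPM, fell (log2 -0.94). The small heat shock protein Hspb8 rose (log2 0.69), the constitutive chaperone Hspa8 fell (log2 -0.29) and Hsp90ab1 was not called (log2 0.05).

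Of 76 ribosomal protein genes tested, 71 had an estimate above 0, and the median log2 change was 0.089. The number that rose was 22, against 1 that fell, and single libraries moved it. It was 12 and 14 without control replicates 1 and 3, and 13, 12, 9 and 35 without cytochalasin D replicates 1 to 4. With apoptotic cells present 6 rose and 5 fell. Nuclear genes of oxidative phosphorylation gave 6 rises and 0 falls in 58 by the edgeR test, and rises numbered 1 and 3 without control replicates 1 and 4 and 2, 3 and 1 without cytochalasin D replicates 1 to 3.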
